A study of Rattus norvegicus with 6 samples.

Results

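Glycolysis and hypoxia response genes were followed in synovial tissue, the lining of the joint, from the ankles of male rats with adjuvant arthritis. The set holds 34 genes chosen by name. They comprise the enzymes from hexokinase to lactate dehydrogenase, the regulators that set the flow through them, the oxygen-sensing proteins and classical targets of hypoxia signalling. All 34 were found on the array under their gene names, with Pkm listed as Pkm2, on 43 of the 41012 probes that are not controls. Of these genes, 25 had 1 probe and 9 had 2. Pfkm and Pgam2, the isoforms of skeletal muscle, are described apart from the other 32.

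The 6 arrays form 2 groups of 3. All rats were 8 weeks old and had received Freund's complete adjuvant, 0.1 ml a day for 18 days. The arthritis group was given saline and the triptolide group triptolide, a diterpenoid from the vine Tripterygium wilfordii, at 0.4 mg/kg a day for 14 days. No healthy group was analysed here, and the labels name no strain. The labels number the replicates without saying that they were separate animals, so the p-values measure only the spread between these samples, which may be technical.

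Glycolysis splits glucose into pyruvate and yields ATP without oxygen, and lactate dehydrogenase turns the pyruvate into lactate. When oxygen is low, prolyl hydroxylases stop marking the HIF alpha subunits for destruction by VHL. HIF then pairs with ARNT and switches on glycolytic enzymes, lactate export and vessel-active peptides. Inflamed synovium is known as a tissue of low oxygen and high glycolysis.

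Each array had 25850 to 28249 of 43379 non-control spots well above background, and no spot was saturated. The levels below are log2 intensities relative to the array's own 75th percentile, so each probe can be compared between arrays but not with another probe. The tissue label was set against synovial fibroblast markers, of which 11 of 12 were tested. The brightest, the collagens Col3a1 and Col1a1, lay at 8.86 to 9.67 and at 7.02 to 7.50. Other fibroblast markers, named after their values were seen, were less even. Prg4, the joint lubricant, stood at 4.27 in arthritis 2 and 3.52 in triptolide 2, against 6.55 to 7.37 elsewhere, and Fap and Has1 were lowest in the same arrays. Clic5 was 0.35 in triptolide 2, against 2.90 to 3.88 elsewhere. Arrays differed in other tissue markers. Of 20 skeletal muscle markers 18 were tested, and all 18, the bright troponins Tnnt3 and Tnni2 among them, were highest in arthritis 2. Their mean log2 deviation from each marker's own average was 8.11 there, against -3.83 and -3.94 in arthritis 1 and 3 and 1.06, -2.98 and 1.58 in triptolide 1 to 3. All 18 were well above background in arthritis 2, triptolide 1 and triptolide 3, 14 in triptolide 2, 10 in arthritis 1 and 9 in arthritis 3. Triptolide 2 had the highest mean of smooth muscle markers (brightest Tagln and Myh11), 3.05. It had the lowest means of macrophage markers (brightest Lyz2 and Cd68), -0.57, and of T and NK cell markers (brightest Cd3d and Cd3g), -0.98. Arthritis 2 was next lowest in both, at -0.43 and -0.67. Lyz2 was lowest in triptolide 2, while Cd68, Cd3d and, by a small margin, Cd3g were lowest in arthritis 2. The mean of chondrocyte markers (brightest Comp and Cnmd) was also highest in triptolide 2, at 1.32. Cnmd, Col2a1 and Col9a1 were highest there, but Comp was highest in arthritis 3, at 5.35 against 5.11, and Matn1 in triptolide 1. Of the 11 fibroblast markers tested, 3 had higher and 8 lower mean values in the triptolide group, with a median log2 difference of -0.39. For the 8 endothelial markers the counts were 7 and 1, with a median of 0.16. All 4 erythroid markers tested had higher mean values in the triptolide group, with a median log2 difference of 0.69. The brightest, Hbb and Alas2, differed by 0.97 (SE 0.42) and 1.07 (SE 0.44, unadjusted p = 0.0493 by limma). The skeletal muscle markers were entered as a covariate, with which 20 members had higher and 14 lower values in the triptolide group, and the median was 0.09. Their group means were close, at 0.11 in arthritis and -0.11 in triptolide, so this covariate could move a group difference only slightly. The part of the other marker groups in the members' values was not tested. Arthritis 1 to 3 and triptolide 1 were on one slide, per the file headers, and triptolide 2 and 3 on another.

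No member passed the test between the groups. Over all 25777 tested probes, limma with Benjamini-Hochberg adjustment called 0 at an adjusted p under 0.05, which is 0% of them. The lowest adjusted p of any probe was 0.344, and those of the members were 0.994 to 0.999. At an unadjusted p under 0.05 there were 3 of 34 members, Adm, Eno2 and Arnt, or 8.82%, against a background of 3.24% of all probes. The groups did not overlap for 5 members, Adm, Eno2, Hk1, Pfkfb3 and Arnt, or 14.7%, against 8.64% of all probes. The median log2 difference, triptolide minus arthritis, was 0.08 over the members and 0.02 over all tested probes, and 19 members had higher and 15 lower values in the triptolide group. Because these are bulk samples, fewer cells of a type and less RNA per cell cannot be told apart.

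What stood out among the members was the spread between arrays of one group. The median SD within the arthritis group was 0.46 for members and 0.25 for all tested probes. Within the triptolide group it was 0.50 and 0.25. Arthritis 2 was the highest array for 17 of 34 members, or 50.0%, against 18.9% of all probes, and for 15 of the 32 that are not muscle isoforms. Triptolide 1 was the highest for 12 members, or 35.3%, against 18.4%. Triptolide 2 was the lowest for 16 members, or 47.1%, against 24.0%. The plot of members by array shows these 3 arrays at the ends of most lines. They were often at the ends for all probes too, but in part at the other end. Arthritis 2 was the lowest array for 37.3% of all probes, against 17.6% of members. Triptolide 2 was the highest for 24.4% of all probes, against 8.82% of members.

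**Figure D1:**
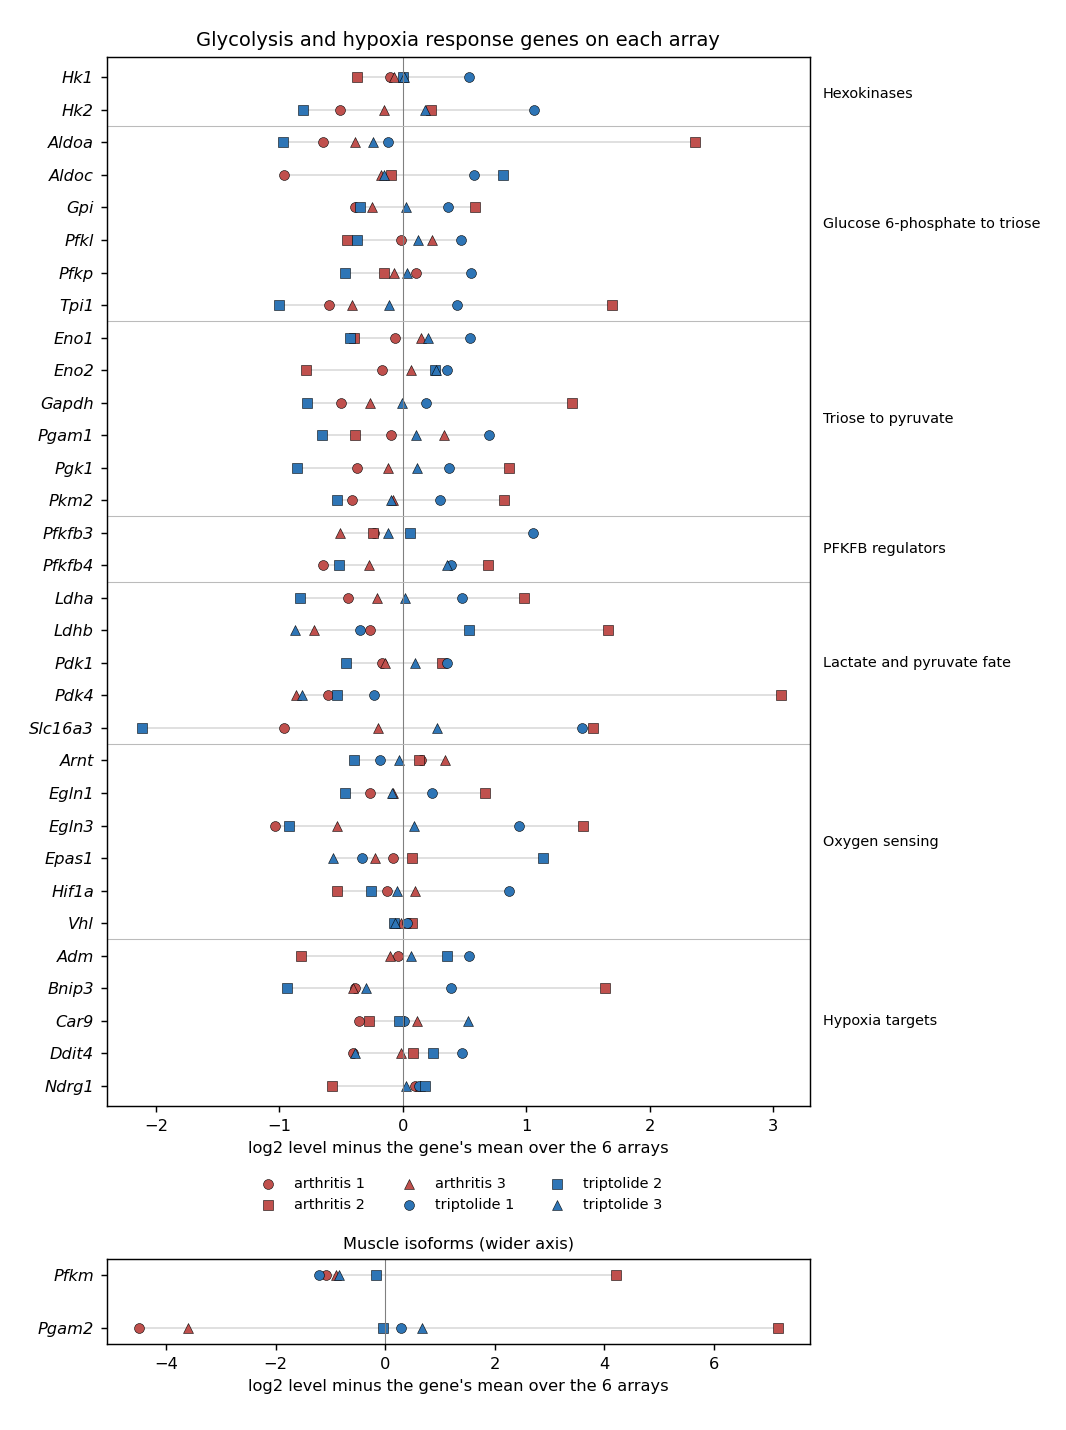
Each line is a member and each point an array, placed by its log2 level minus the gene's mean over the 6 arrays; red is arthritis, blue is triptolide, and the shape gives the replicate. The arthritis 2 squares lie far to the right for Aldoa, Pdk4 and Bnip3, and the lower panel, on a wider axis, shows Pgam2 from -4.50 to 7.18 around its mean.

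The 2 muscle isoforms varied most. Pgam2, the phosphoglycerate mutase of muscle, stood at -4.00, 7.68 and -3.10 in arthritis 1 to 3 and at 0.80, 0.47 and 1.18 in triptolide 1 to 3. Arthritis 2 was far above every other array and the other arthritis arrays were below all triptolide arrays, so the groups overlapped through that array alone. Its highest array was 3276-fold above its lowest. The log2 difference was 0.62 (SE 3.00), and without arthritis 2 it was 4.36. Its probe lies on chromosome 14, at chr14:86466146-86466205 of build rn4, minus strand, and whether it lies in an exon or elsewhere was not analysed here. It is printed because this probe carries the largest range among the members.
Pgam2 probe: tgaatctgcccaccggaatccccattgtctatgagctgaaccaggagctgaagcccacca

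Pfkm, the phosphofructokinase of muscle, had levels of 0.75, 6.05 and 0.93 in the arthritis group and 0.63, 1.67 and 0.99 in the triptolide group. Only arthritis 2 was high, and the other 5 arrays lay close together. The log2 difference of -1.48 (SE 1.41) became 0.25 without arthritis 2. The plot beside the skeletal muscle markers shows both isoforms peaking where those markers peak. Over the other arrays Pfkm did not follow them. It was next highest in triptolide 2, where the marker mean was -2.98, and lowest in triptolide 1, where that mean was 1.06. With the mean of the muscle markers as a covariate the log2 differences were -1.40 for Pfkm and 0.81 for Pgam2. That mean was 0.11 in the arthritis group and -0.11 in the triptolide group. So near a balance, the covariate could move a group difference only slightly.

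**Figure D2:**
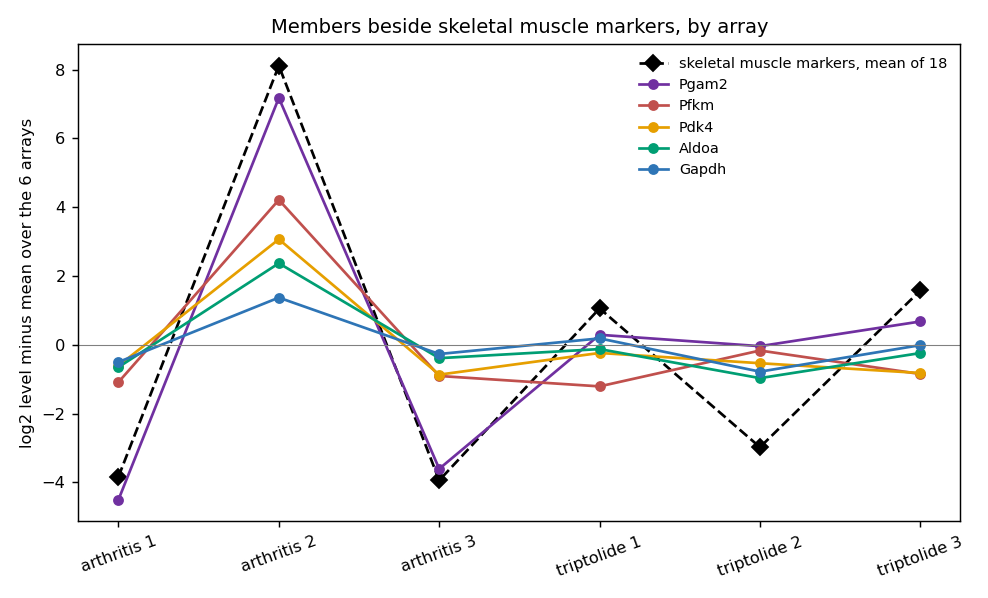
The dashed line is the mean of 18 skeletal muscle markers and the coloured lines are 5 members, each as log2 level minus its mean over the 6 arrays, against the 6 arrays. All 6 lines peak in arthritis 2, at 8.11 for the markers and 7.18 for Pgam2. Of all 34 members, 17 were highest in that array and 6 were lowest there.

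Hexokinases trap glucose in the cell as glucose 6-phosphate. Hk1, the widely expressed form, had levels of 2.51, 2.24 and 2.54 in the arthritis group and 3.15, 2.61 and 2.62 in the triptolide group. All triptolide arrays were above all arthritis arrays, and triptolide 1 was highest. The log2 difference was 0.37 (SE 0.21, unadjusted p = 0.125 by limma), and without triptolide 1 it was 0.19. Its second probe was also higher in every triptolide array, by 0.47 (SE 0.26). The files place neither Hk1 probe on the genome. Hk2, the inducible hexokinase, ranged from -3.34 to -2.60 in the arthritis group and from -3.64 to -1.77 in the triptolide group, which spanned the former.

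The enzymes that carry glucose 6-phosphate to the triose phosphates held no member with separate groups. Aldoa, the aldolase of muscle and many other tissues, had levels of 4.14, 7.16 and 4.40 in the arthritis group against 4.66, 3.82 and 4.55 in the triptolide group. Arthritis 2 alone was high, and the log2 difference of -0.89 (SE 0.81) was 0.08 without it. Aldoc, the aldolase best known from brain, had levels of -2.70, -1.83 and -1.91 against -1.15, -0.92 and -1.89. Triptolide 1 and 2 were above every arthritis array, while triptolide 3 lay within the arthritis range. Its log2 difference was 0.83 (SE 0.35, unadjusted p = 0.0525 by limma), and it ranged from 0.55 to 1.11 with arrays left out.

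Tpi1, which interconverts the 2 triose phosphates, had levels of 1.41, 3.70 and 1.60 against 2.45, 1.00 and 1.90. Arthritis 2 was highest and triptolide 2 lowest, the order also seen for Aldoa, Gapdh, Pgk1, Pkm2, Ldha, Slc16a3, Bnip3, Egln1 and Vhl. Gpi, the glucose 6-phosphate isomerase, differed by 0.03 (SE 0.32) on its brighter probe and by -0.21 (SE 0.36) on the other. The phosphofructokinases Pfkl, of liver type, and Pfkp, of platelet type, differed by 0.15 (SE 0.28) and 0.08 (SE 0.28).

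The steps from triose phosphate to pyruvate held 1 member whose groups were apart. Eno2, the enolase best known from neurons, had levels of 1.98, 1.36 and 2.21 in the arthritis group and 2.50, 2.40 and 2.41 in the triptolide group. All triptolide arrays were above all arthritis arrays and nearly equal to each other. The log2 difference was 0.59 (SE 0.24, unadjusted p = 0.0497 by limma), and it was 0.34 without arthritis 2, the array in which Eno2 was lowest. Its probe lies at chr4:160890338-160890397 of rn4, minus strand.

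Gapdh, which oxidises glyceraldehyde 3-phosphate and often serves as a reference gene, was not level across these arrays. It stood at 6.51, 8.38 and 6.74 in the arthritis group and at 7.19, 6.23 and 7.00 in the triptolide group. Its highest array was 4.45-fold above its lowest, and its second probe spanned 4.70-fold. Pgk1, which makes the first ATP of the pathway, had levels of 3.90, 5.13 and 4.14 against 4.64, 3.41 and 4.38. Pkm2, the pyruvate kinase of the last step, had 4.59, 5.83 and 4.93 against 5.31, 4.48 and 4.92. In both genes the extremes were again arthritis 2 and triptolide 2.

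Eno1, the widely expressed enolase, and Pgam1, the non-muscle mutase, followed another order, with triptolide 1 highest and triptolide 2 lowest. Eno1 differed by 0.21 (SE 0.29) and 0.26 (SE 0.32) on its 2 probes. Pgam1 differed by 0.10 (SE 0.38) on its brighter probe, which is uncertain: the files place it on chromosome 10 of rn4, while RefSeq places the gene on chromosome 1 of GRCr8. The dimmer Pgam1 probe, which has no given place on the genome, differed by 0.15 (SE 0.43).

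The PFKFB enzymes set the level of fructose 2,6-bisphosphate, the strongest activator of phosphofructokinase. Pfkfb3, the form known for driving glycolysis in proliferating and hypoxic cells, had levels of -3.00, -3.01 and -3.28 in the arthritis group and -1.72, -2.71 and -2.89 in the triptolide group. The groups did not overlap, and triptolide 1 stood well above the other triptolide arrays. The log2 difference was 0.66 (SE 0.33, unadjusted p = 0.0884 by limma), and without triptolide 1 it was 0.30. With normexp background correction it was 0.21 and the groups overlapped. Pfkfb4 ranged from -4.23 to -2.89 against -4.10 to -3.19. The Pfkfb3 probe, shown because it carries one of the 5 separations, lies at chr17:78258273-78258332 of rn4, plus strand.
Pfkfb3 probe: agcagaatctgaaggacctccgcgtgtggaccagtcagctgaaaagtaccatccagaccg

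The 5 genes of lactate and pyruvate handling all had lower mean values in the triptolide group, and all 5 had higher mean values there without arthritis 2. Ldha, the lactate dehydrogenase subunit favoured in glycolytic tissue, had levels of 2.77, 4.20 and 3.01 against 3.70, 2.38 and 3.24. Its log2 difference of -0.22 (SE 0.49) was 0.22 without arthritis 2. Slc16a3, the lactate exporter MCT4, had levels of 3.26, 5.76 and 4.02 against 5.67, 2.11 and 4.49. It was the member with the widest spread in the triptolide group, where triptolide 1 and 2 differed by more than any arthritis arrays did. Its log2 difference was -0.25 (SE 1.03), and without arthritis 2 it was 0.45.

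Ldhb, the subunit of oxidative tissue, had levels of 2.90, 4.83 and 2.44 against 2.82, 3.70 and 2.29. Pdk4, a kinase that closes the entry of pyruvate into mitochondria and is abundant in muscle, had 0.02, 3.70 and -0.24 against 0.39, 0.10 and -0.19. Arthritis 2 was the only array with a high Pdk4 level, on both probes, and the difference of -1.06 (SE 1.03) was 0.21 without it. Pdk1, the related kinase that HIF is known to induce, differed by less than 0.01 (SE 0.27).

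Among the oxygen-sensing genes, Arnt was the 1 member with lower values throughout the triptolide group. ARNT is the partner that HIF alpha subunits need to bind DNA. Its levels were -3.37, -3.38 and -3.17 in the arthritis group and -3.70, -3.91 and -3.54 in the triptolide group. Every triptolide array was below every arthritis array. The log2 difference was -0.41 (SE 0.16, unadjusted p = 0.0442 by limma), and it ranged from -0.50 to -0.31 with arrays left out. With normexp background correction it was -0.25, with quantile normalization added -0.16, and in neither was the unadjusted p under 0.05. Its probe lies at chr2:190385287-190385346 of rn4, plus strand.

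Hif1a, the oxygen-regulated alpha subunit, had levels of 3.87, 3.47 and 4.10 against 4.87, 3.75 and 3.96. Triptolide 1 was high and the other triptolide arrays lay within the arthritis range; the difference was 0.38 (SE 0.34), and 0.04 without triptolide 1. Epas1, which encodes HIF-2 alpha and is rich in endothelium, was high in triptolide 2 alone, at 1.51, with the other arrays between -0.19 and 0.45. The mean of endothelial markers, Kdr and Vwf the brightest, was also highest there, at 0.74, and its part in the Epas1 value was not tested.

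The prolyl hydroxylases Egln1 and Egln3, the latter a known HIF target, differed by -0.21 (SE 0.31) and 0.08 (SE 0.76). Egln3 was 1.72 in arthritis 2 and 1.20 in triptolide 1, and no more than 0.35 in the other arrays. Vhl, the recognition subunit that marks hydroxylated HIF, was the steadiest member, with a range of 0.14 over the 6 arrays. Its dimmer probe had groups that did not overlap, with a difference of 0.26 (SE 0.14), so its 2 probes disagree.

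Of the hypoxia targets, Adm was the 1 whose groups did not overlap. Adrenomedullin is a peptide that widens vessels. Its levels were 2.81, 2.02 and 2.74 in the arthritis group and 3.38, 3.20 and 2.91 in the triptolide group. Every triptolide array was above every arthritis array, and arthritis 2 was the lowest. The log2 difference was 0.64 (SE 0.26, unadjusted p = 0.0482 by limma), a 1.56-fold higher mean, and it was 0.39 without arthritis 2. Its probe lies at chr1:168382310-168382369 of rn4, plus strand.

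Bnip3, a mitochondrial protein of mitophagy, had levels of 2.42, 4.44 and 2.40 against 3.20, 1.87 and 2.51, again with arthritis 2 highest and triptolide 2 lowest. Car9, a carbonic anhydrase that serves as a marker of hypoxia, differed by 0.34 (SE 0.23). Ddit4, an inhibitor of mTORC1, differed by 0.22 (SE 0.27). Ndrg1, a stress-induced protein, differed by 0.22 (SE 0.23) on its brighter probe. That probe was low in arthritis 2 alone, at 2.89, with the other arrays between 3.49 and 3.64. Its dimmer probe differed by 0.08 (SE 0.26). There arthritis 2 stood at 0.125, triptolide 1 and 3 at 0.40, and the other arrays at 0.66 to 1.01.

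**Figure D3:**
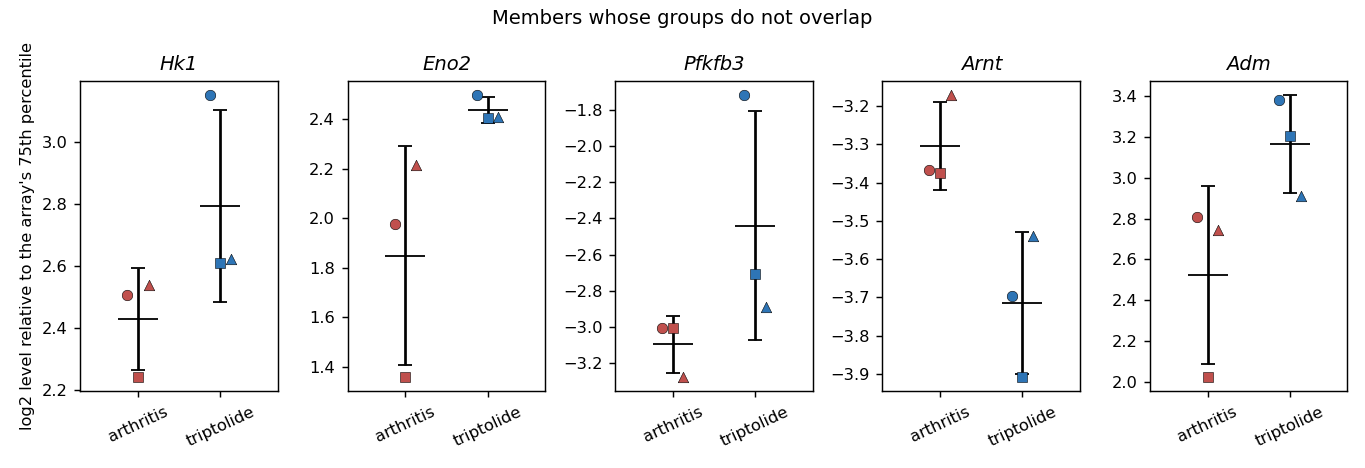
Points are arrays, horizontal bars are group means and error bars are SD (n = 3), on the log2 level of each gene with an axis of its own. Hk1, Eno2, Pfkfb3 and Adm are higher and Arnt is lower in all 3 triptolide arrays.

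The direction of the set as a whole rested on single arrays. Without arthritis 2, 29 members had higher and 5 lower values in the triptolide group, the median was 0.22, and 16 members changed sign. Without triptolide 1 the counts were 11 higher and 23 lower, with a median of -0.17. They were 15 and 19 without arthritis 1, with a median of -0.11, and 16 and 18 without arthritis 3, with a median of -0.08. The direction stayed without triptolide 2, with 22 higher, 12 lower and a median of 0.22. It also stayed without triptolide 3, with 19 higher, 15 lower and a median of 0.04. Without both arthritis 2 and triptolide 2, the arrays highest in skeletal and in smooth muscle markers, 28 members were higher, the median was 0.37 and 11 members had an unadjusted p under 0.05, where 11.2% of all probes did. No member reached an adjusted p under 0.05 in any of these fits. With slide as a block the median was 0.38, and it was the same within slide 1, where triptolide 1 alone stands for the treated group. There the differences were 0.86 for Adm, 0.65 for Eno2, 0.72 for Hk1, 1.38 for Pfkfb3 and -0.39 for Arnt. With the block, Hif1a, Hk1 and Pfkfb3 had an unadjusted p under 0.05, where 3.77% of all probes did, and Adm, Eno2 and Arnt did not. With limma's array weights the differences were 0.23 for Adm, 0.38 for Eno2, 0.18 for Hk1, 0.38 for Pfkfb3 and -0.28 for Arnt.

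**Figure D4:**
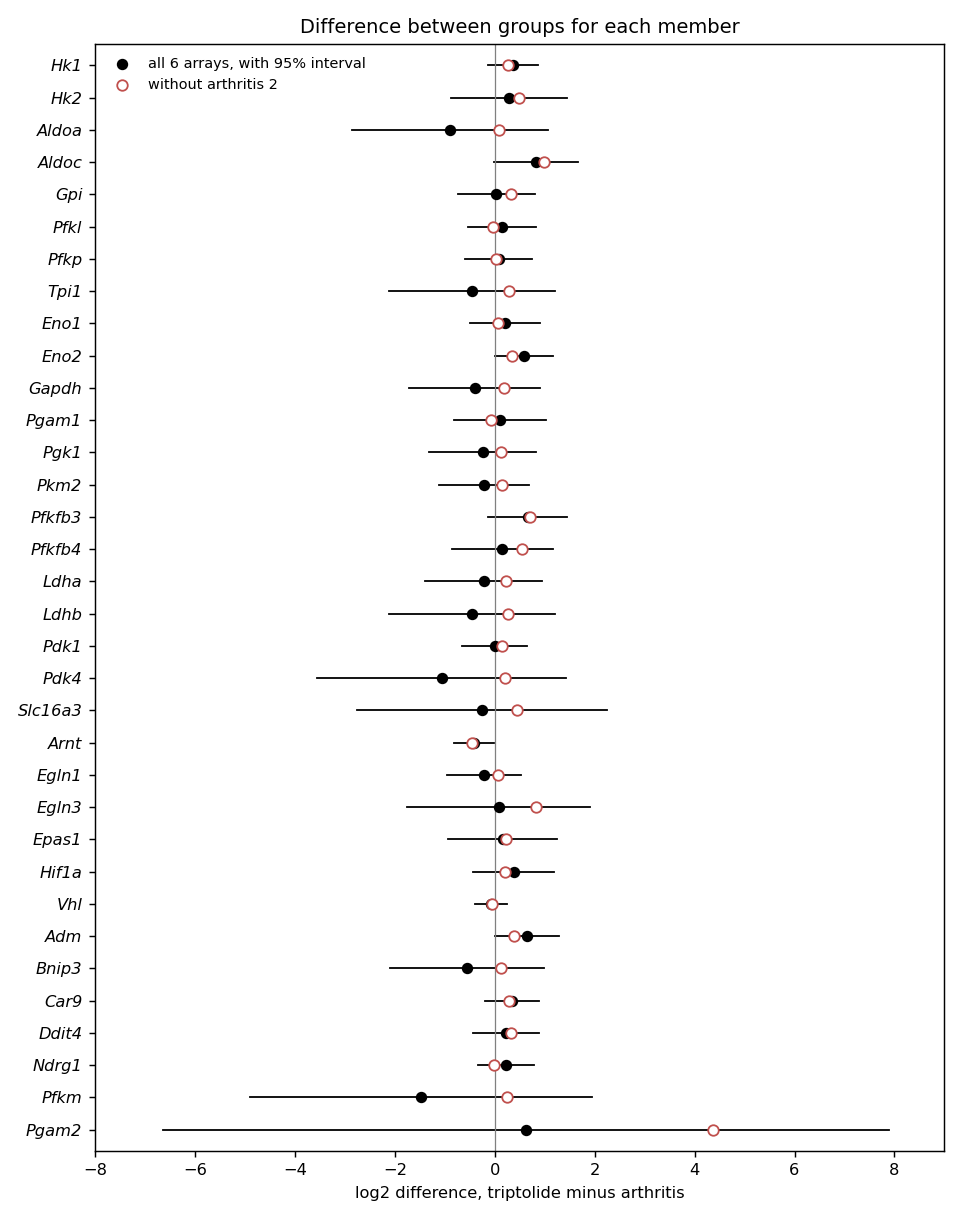
Black points are log2 differences (triptolide minus arthritis) with 95% intervals from limma over 6 arrays, and open points are the same differences without arthritis 2. Pgam2 moves from 0.62 to 4.36, and Aldoa, Pdk4 and Pfkm move from below 0 to above it.

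The 3 unadjusted calls also depended on single arrays. Adm alone remained under 0.05 without arthritis 1, Eno2 alone without arthritis 3, and Arnt with Pgam2 without arthritis 2. None did without triptolide 1 or without triptolide 2. Without triptolide 3 there were 4, Adm, Aldoc, Arnt and Pfkfb3. Of all probes, 2.63%, 3.35% and 2.77% were under 0.05 without arthritis 1, 2 and 3 in turn. Without triptolide 1, 2 and 3 the shares were 3.69%, 6.43% and 2.40%.

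Other genes of the same pathways also held 0 with an adjusted p under 0.05. Of 29 further glycolysis and pyruvate genes 24 were tested. An unadjusted p under 0.05 by limma was met by 0 of them, or 0%, against 3.24% of all probes. The groups did not overlap for 1, the pyruvate dehydrogenase phosphatase Pdp1, or 4.17%, against 8.64% of all probes. Of 40 further hypoxia genes 37 were tested and 3 had an unadjusted p under 0.05, or 8.11%, against 3.24% of all probes. These 3 were also the ones whose groups did not overlap, a share of 8.11% against 8.64% of all probes. Vegfa, the growth factor of blood vessels, had levels of 1.18, 1.25 and 0.91 in the arthritis group and 1.83, 2.31 and 1.34 in the triptolide group. Edn1, the vessel-narrowing peptide endothelin, had -3.10, -3.33 and -3.00 against -2.50, -2.19 and -2.82. Both were higher in every triptolide array, by 0.71 (SE 0.27) and 0.64 (SE 0.21) on the log2 scale. Lox, which crosslinks collagen, was lower in every triptolide array, with a log2 difference of -0.52 (SE 0.20). Their adjusted p was 0.994 each. With slide as a block limma gave unadjusted p of 0.143 for Vegfa, 0.0998 for Edn1 and 0.0781 for Lox. With normexp background correction Edn1 differed by 0.21, with an unadjusted p of 0.2004.

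Promoters were searched for the core of the hypoxia response element, ACGTG, and for its variant GCGTG, on both strands, in the 300 bases from 250 before to 50 after each start (RefSeq, GRCr8). Of 34 members 32 matched a promoter, all but Pgk1 and Ndrg1. ACGTG was found in 14 of 32, or 43.8%, against 19.7% of 27457 rat promoters, and either motif in 19, or 59.4%, against 42.9%. These are matches of letters and not sites of binding. Of the 5 members whose groups did not overlap, Eno2 held 1 match of ACGTG, Pfkfb3 held 2 that overlap as CACGTG, Arnt held 1 of the variant, and Adm and Hk1 held none. Ldha had 6 matches of either motif and Bnip3 had 4, in each gene with 2 that overlap as CACGTG. Both genes were highest in arthritis 2 and lowest in triptolide 2. The windows of these 4 genes are shown, with the matches in capitals, as examples of windows that hold matches. Of the other members with the same highest and lowest arrays as Ldha, Gapdh held 3 matches and Egln1 held 2. Aldoa, Tpi1, Pkm2, Slc16a3 and Vhl held none. Pdk1, highest in triptolide 1, held 4. Whether matches go with the order of the arrays was not tested.
Eno2, chr4:159267171-159267470, minus strand: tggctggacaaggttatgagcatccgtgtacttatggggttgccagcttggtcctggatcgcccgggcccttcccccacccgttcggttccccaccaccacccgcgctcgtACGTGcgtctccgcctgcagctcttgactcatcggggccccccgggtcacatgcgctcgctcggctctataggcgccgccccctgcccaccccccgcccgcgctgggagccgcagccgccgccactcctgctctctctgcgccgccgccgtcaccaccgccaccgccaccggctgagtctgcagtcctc
Pfkfb3, chr17:71944683-71944982, plus strand: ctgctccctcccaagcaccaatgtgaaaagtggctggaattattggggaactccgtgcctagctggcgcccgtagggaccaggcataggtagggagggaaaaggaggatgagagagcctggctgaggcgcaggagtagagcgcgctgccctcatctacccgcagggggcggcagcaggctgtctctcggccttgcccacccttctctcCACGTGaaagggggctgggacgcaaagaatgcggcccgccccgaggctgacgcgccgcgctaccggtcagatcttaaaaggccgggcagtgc
Ldha, chr1:106507842-106508141, plus strand: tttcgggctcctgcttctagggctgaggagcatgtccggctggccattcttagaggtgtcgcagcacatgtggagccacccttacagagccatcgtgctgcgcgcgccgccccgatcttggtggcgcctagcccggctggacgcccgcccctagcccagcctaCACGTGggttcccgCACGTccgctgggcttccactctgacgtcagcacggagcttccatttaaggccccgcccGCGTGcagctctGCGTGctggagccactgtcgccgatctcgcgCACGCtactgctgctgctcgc
Bnip3, chr1:203154913-203155212, minus strand: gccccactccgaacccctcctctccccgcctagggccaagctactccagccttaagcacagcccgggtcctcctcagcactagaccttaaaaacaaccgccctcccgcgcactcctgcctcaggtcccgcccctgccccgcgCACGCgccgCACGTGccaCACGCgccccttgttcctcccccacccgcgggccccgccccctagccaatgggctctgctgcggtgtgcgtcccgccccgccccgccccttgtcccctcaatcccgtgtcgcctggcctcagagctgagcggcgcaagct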

How the data were processed

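The deposited values used here are spot intensity readings from the scanner output of each array, linear in scale and with background already subtracted, per the file headers. The headers give Agilent Feature Extraction 10.7.3.1 and build rn4; per the submitters' processing notes the version was 9.1. A deposited table of 167 rows held 0 member probes and was not used. Spots flagged as outliers and control spots were dropped here. The processed intensity was put on a log2 scale, the array's 75th percentile was subtracted, and a probe's spots were averaged. Probes well above background on at least 3 of 6 arrays, 25777 in all, were tested in limma 3.58.1 under R 4.3.3, with lmFit, eBayes and Benjamini-Hochberg adjustment over all of them. A gene is represented by its brightest probe. All 34 members were named, and of the other pathway genes those with an unadjusted p under 0.05 and no overlap. Pdp1, Prg4, Fap, Has1, Clic5 and the extreme arrays were singled out after their values were seen. The members and gene lists were chosen with earlier results of these data known. The scripts were tested on simulated data. The number of arrays limits the precision. The alternatives covered normalization, background correction, the filter on dim probes, slide and replicate blocks, a muscle covariate, array weights and arrays left out.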

Additional observations from a re-analysis of the deposited data

How the results depend on the processing

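The counts of members with an adjusted p under 0.05 stayed at 0 in every alternative run. The deposited table of the series held no member probe, so values from it could not be compared. Keeping only probes with a value on every array, an alternative chosen after seeing the data, left 25772 probes, and the same 3 members had an unadjusted p under 0.05. Members at an unadjusted p under 0.05, 3 as reported, were 0 under quantile normalization and 0 with no filter on dim probes. They were 6 with array weights and 0 to 11 with arrays left out. The shares of all probes in these fits, in the same order, were 3.19%, 4.29%, 16.9% and 2.40% to 11.2%. With the replicate number as a block the count of members was 1, Arnt, where 4.14% of all probes were under 0.05. The same-numbered arrays' deviations correlated at -0.16, -0.13 and 0.00083, and those of differently numbered arrays at -0.10 to 0.16. With 3 arrays a group these values cannot settle whether the numbers pair the samples. The labels name no pairing. Members whose groups did not overlap, 5 as reported, were 16 within slide 1 and 5 to 21 with arrays left out. Of all probes, the groups did not overlap for 52.7% within slide 1, where triptolide 1 alone stands for the treated group. With arrays left out that share was 15.9% to 45.1%, against 8.64% as reported. Over all probes, unadjusted p under 0.05 was met by 1758 with no filter, 1297 within slide 1, 1649 with muscle markers as a covariate, 4345 with array weights and 619 to 2880 with arrays left out. Adjusted p under 0.05 was met by 1 with array weights and by 0 to 24 with arrays left out. Groups did not overlap for 4174 with no filter, 13570 within slide 1 and 4090 to 11620 with arrays left out; fewer arrays make separation easier by construction. The median of the members ran from -0.17 to 0.37 with arrays left out.

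Single genes that changed sign are given with their log2 differences; the cause was not tested. With arrays left out the ranges were Aldoa from -1.44 to 0.34, Bnip3 from -0.90 to 0.45, Egln1 from -0.40 to 0.25, Egln3 from -0.42 to 1.30, Eno1 from -0.0077 to 0.48, Epas1 from -0.37 to 0.48, Gapdh from -0.75 to 0.47, Gpi from -0.15 to 0.51, Hk2 from -0.17 to 0.95, Ldha from -0.52 to 0.58, Ldhb from -0.93 to 0.26, Ndrg1 from -0.039 to 0.35. The others were Pdk1 from -0.18 to 0.39, Pdk4 from -1.76 to 0.21, Pfkfb4 from -0.13 to 0.83, Pfkl from -0.049 to 0.37, Pfkm from -2.39 to 0.25, Pfkp from -0.18 to 0.33, Pgam1 from -0.22 to 0.46, Pgam2 from -1.48 to 4.54, Pgk1 from -0.49 to 0.49, Pkm2 from -0.48 to 0.35, Slc16a3 from -1.04 to 1.45 and Tpi1 from -0.87 to 0.66. Slide as a block and slide 1 alone gave the same values: Bnip3 0.11, Egln1 0.13, Epas1 -0.26, Ldha 0.37, Pdk1 0.35, Pgk1 0.25, Pkm2 0.19, Slc16a3 1.33 and Tpi1 0.21. Array weights gave Aldoa 0.17, Bnip3 0.078, Ddit4 -0.015, Egln1 0.10, Epas1 -0.34, Gapdh 0.32, Ldha 0.34, Ndrg1 -0.039, Pdk1 0.25, Pgk1 0.33, Pkm2 0.17, Slc16a3 0.89 and Tpi1 0.35. Normexp background gave Pdk1 0.22, Pfkfb4 -0.067, Pfkl -0.042, Pfkp -0.015 and Pgam2 -0.36, and with quantile normalization Pdk1 0.24, Pfkl -0.019, Pfkp -0.020 and Pgam2 -0.35. The muscle covariate gave Pdk1 0.0075, and the mean over a gene's probes gave Gpi -0.089 and Vhl 0.093.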
